A study of Mus musculus with 7 samples.

Results

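Nfatc1 peaks found only with DMSO are the CUT&Tag peaks of the DMSO library that overlapped no peak of the R406 library by 1 base or more, on chromosomes 1 to 19 and X. They numbered 5714 of 21157 DMSO peaks, or 27.0%, and the other 15443 DMSO peaks overlapped an R406 peak and are called shared here. Membership rests on the deposited peak lists, which means that the members were chosen by the position of called peaks. Their fold, p-value, width and distance to R406 peaks describe what chose them and carry no test.

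All cells were mouse embryonic fibroblasts of embryonic day 13.5 from the OG2 strain, CBA-Tg(Pou5f1-EGFP)2Mnn/J, which carries a green fluorescent reporter of Pou5f1. For CUT&Tag, both conditions used fibroblasts that had received lentivirus for rtTA and for TetO-Flag-Nfatc1, kept in Stage 1 medium with doxycycline and given DMSO or R406 for 4 days, with 1 anti-FLAG library per condition. The peaks therefore map a tagged Nfatc1 supplied from a vector, on top of the cells' own gene. RNA-seq was made from 2 DMSO and 2 R406 libraries of fibroblasts in Stage 1 medium (bFGF, VPA, CHIR99021, 616452, Parnate, Forskolin, AM580, EPZ004777 and vitamin C) under a 12-day protocol, and the labels do not describe those cells as infected. The sources used here do not give the RNA harvest day or the R406 dose, and the blank CUT&Tag library was not analysed here.

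R406 inhibits the kinase Syk, which acts below immune-type receptors to activate phospholipase C gamma and release calcium from stores. Calcium activates the phosphatase calcineurin, which dephosphorylates NFAT proteins so that they enter the nucleus, where they bind a short GGAAA core, often beside AP-1 factors of the Fos and Jun families. CUT&Tag places a cutting transposase at an antibody, so that stacked sequence tags mark where the tagged protein sits. A single library per condition gives no measure of spread, so a peak present in 1 list and absent from the other cannot be separated from variation between libraries.

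The promoters with the strongest DMSO-only peaks differed widely in base composition. Among the members that overlapped a promoter window, from 250 bases before to 50 bases after a RefSeq gene start, the 6 with the highest fold lay at Capza2, Gm34173, Slc44a1, Phf20, Lsm6 and Plek. The 250 bases before the start are shown for 4 of them, to set GC-rich promoters beside AT-rich ones that hold GGAAA cores. They are from RefSeq on GRCm38.p6, the assembly of mm10, written 5′ to 3′ on the strand of the gene, with GGAAA and its reverse complement TTTCC in capitals.
Capza2, chr6:17636760-17637009, plus strand: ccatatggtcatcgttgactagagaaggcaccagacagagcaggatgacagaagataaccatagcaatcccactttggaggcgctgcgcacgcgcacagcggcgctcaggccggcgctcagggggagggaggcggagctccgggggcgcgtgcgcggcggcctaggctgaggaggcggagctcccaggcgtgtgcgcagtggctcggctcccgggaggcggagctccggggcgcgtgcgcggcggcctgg
Phf20, chr2:156196397-156196646, plus strand: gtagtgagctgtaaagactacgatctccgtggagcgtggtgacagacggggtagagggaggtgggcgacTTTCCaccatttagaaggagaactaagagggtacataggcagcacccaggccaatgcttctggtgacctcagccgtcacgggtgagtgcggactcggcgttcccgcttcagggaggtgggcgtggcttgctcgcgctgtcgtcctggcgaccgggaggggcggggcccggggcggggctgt
Gm34173, chr11:40429193-40429442, minus strand: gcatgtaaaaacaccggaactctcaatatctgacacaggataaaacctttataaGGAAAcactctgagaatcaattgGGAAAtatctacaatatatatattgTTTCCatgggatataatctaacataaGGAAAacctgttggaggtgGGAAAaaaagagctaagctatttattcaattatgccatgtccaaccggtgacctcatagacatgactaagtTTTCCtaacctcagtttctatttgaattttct
Plek, chr11:17008719-17008968, minus strand: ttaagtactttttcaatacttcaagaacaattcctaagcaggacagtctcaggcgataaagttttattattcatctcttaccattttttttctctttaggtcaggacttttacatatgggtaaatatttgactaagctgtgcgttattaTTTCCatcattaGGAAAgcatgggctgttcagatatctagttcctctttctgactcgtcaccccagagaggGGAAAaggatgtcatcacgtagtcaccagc

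Capza2 encodes a subunit of the actin capping protein, and its sequence was 70.4% G or C with 28 CpG dinucleotides and 0 GGAAA cores. Its member peak, chr6:17636701-17637073, had a fold of 18.9. Phf20, a chromatin reader, had 64.0% GC and 1 core, under a peak with a fold of 15.3. The summit of that peak lay 224 bases past the start, outside the bases printed. Gm34173, a predicted gene with no matched RNA value, had 34.4% GC and 6 cores, under a peak with a fold of 18.2. Plek, the pleckstrin gene of blood cells, had 38% GC and 3 cores, under a peak with a fold of 13.8 and a summit 28 bases past the start, also outside. Of the promoters not printed, that of Slc44a1, a choline transporter gene, had 81.2% GC and 0 cores, and that of Lsm6, an RNA-binding protein gene, had 44.8% GC and 0 cores.

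Plek RNA was 1.75 and 1.91 TPM with DMSO and 0.0664 and 0.202 TPM with R406. The R406 values were both below the DMSO values, but the gene's mean was under the 1 TPM needed for the test. Capza2 held 94.7 and 122 TPM in DMSO and 68.3 and 81.2 TPM in R406, and the groups did not overlap. Its change was not called by limma (adjusted p = 0.216, Benjamini-Hochberg over all genes tested).

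The GGAAA core was about as common under the members as anywhere else at gene starts. Members overlapped 491 promoter windows of 300 bases, of which 63.3% held GGAAA on either strand, against 61.6% of all 32585 windows and 60.2% of the 4410 windows under shared peaks. The longer form TGGAAA, which contains that core, was in 19.6% of member windows and 21.6% of all windows. The AP-1 sequence TGANTCA was in 7.33% of member windows, 7.85% of all windows and 5.24% of windows under shared peaks. The GC box CCGCCC was in 65.6% of member windows, 35.9% of all windows and 69.9% of windows under shared peaks, and the median CpG number was 22, 7 and 23. A match of letters is a description of the window only, and a gene with several starts gives several windows.

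The members were small and low peaks. Their median width was 352 bases (quartiles 291 and 459), against 554 for shared DMSO peaks. It was 377 for R406-only peaks, the R406 peaks that overlapped no DMSO peak, so small size was not particular to the members. Their median fold, the authors' enrichment over background at the summit, was 6.56 (quartiles 5.12 and 8.01). It was 9.47 for shared peaks and 6.96 for R406-only peaks. The median −log10 p was 9.56 for members, 16.9 for shared peaks and 10.4 for R406-only peaks. Together they covered 2284 kb, and shared peaks 10147 kb.

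The fold of 95.2% of members was a whole number of steps over 1 fixed background, which gives the height of the summit in stacked reads or fragments. The median summit height of these members was 8, with quartiles of 6 and 10 and a range of 5 to 52. The median was 12 for shared peaks, and 10 for R406-only peaks over the background of their own library. The share of DMSO peaks that were members was 74.8% at a height of 5, 58.8% at 6, 40.5% at 8, 29.9% at 10, 13.9% at 15 and 4.73% at 20. Most members thus had summits a few tags above the lowest height found in the list.

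**Figure D1:**
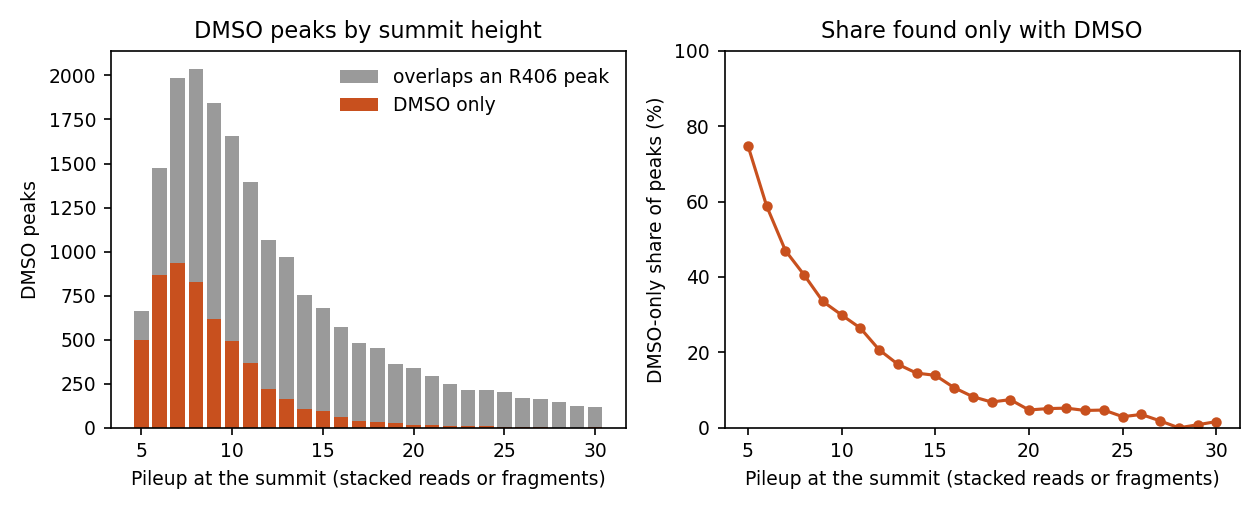
Left, the number of DMSO peaks at each summit height (stacked reads or fragments, heights of 30 or less), split into DMSO-only peaks (orange) and peaks that overlap an R406 peak (grey). Right, the DMSO-only share at each height in percent, which was 74.8% at 5 and 4.73% at 20.

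The lists themselves differed in size and background. The R406 list held 36799 peaks on the same chromosomes, of which 21590 overlapped no DMSO peak. The background height read from the fold steps was 0.373 in the DMSO library and 0.581 in the R406 library. A Poisson tail over that background matched the deposited −log10 p within 0.05 for 99.95% and 99.78% of peaks on whole steps. By the same tail, the lowest height that reached a −log10 p of 5 was 5 in DMSO, or 13.4 times background, and 6 in R406, or 10.3 times background. The part of depth and background in the absence of the members from the R406 list was not tested.

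Many members lay close to an R406 peak without overlapping it. The gap to the nearest R406 peak had a median of 8920.5 bases (quartiles 1966 and 28799). It was at most 1 kb for 986 members (17.3%), 1 to 10 kb for 2028 (35.5%) and over 10 kb for 2700 (47.3%), and over 100 kb for 316 (5.53%). At the edge of the rule, 3 members touched an R406 peak with no shared base, such as chr11:110633577-110633902, between genes, with a fold of 11.7. Just outside it, chrX:53115948-53116250 in Plac1, a placental gene, shared 1 base with an R406 peak at a fold of 6.56.

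**Figure D2:**
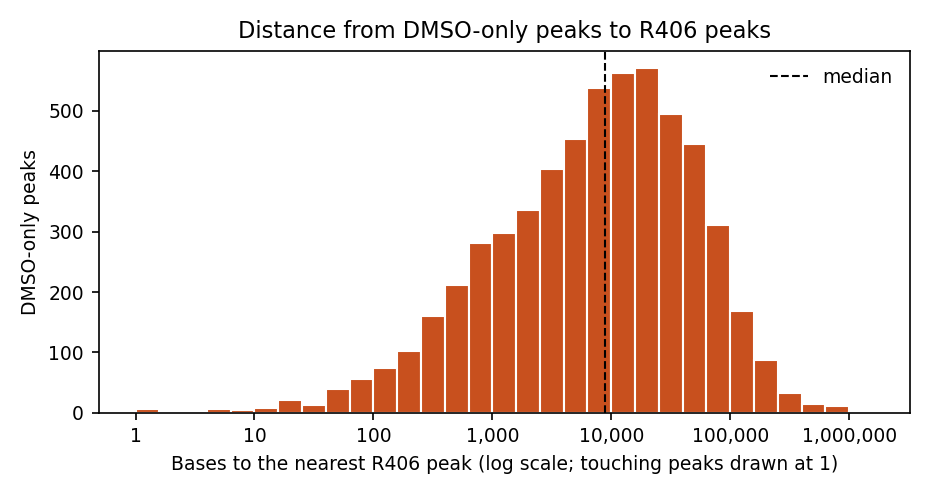
Distances in bases (log scale) from each of the 5714 DMSO-only peaks to the nearest R406 peak, as counts per bin, with touching peaks drawn at 1. The dashed line is the median of 8920.5 bases.

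The members were spread over every chromosome analysed. Their share of a chromosome's DMSO peaks ran from 24.9% on chromosome 3 to 30.7% on chromosome 4. Neighbouring members were a median of 181630 bases apart, and 278 of 5694 neighbouring pairs lay within 5 kb. For 272 members (4.76%) the fold was off the fixed background. One of these, chr2:98664968-98665220, had the highest −log10 p of all members, 2348, at a fold of only 3.68, and the next highest, 361, belonged to chr17:67741362-67741617 in Lama1.

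Members sat away from gene starts more often than shared peaks did, and so did R406-only peaks. A start lay within 1 kb of 652 of the 5493 members off chromosome 18, or 11.9%. The share was 26.4% of 14832 shared peaks and 15.7% of 20788 R406-only peaks, while such windows cover 2.18% of the chromosome length. The start itself was inside the peak for 5.03% of members, 18.4% of shared peaks and 7.78% of R406-only peaks. The start table covers 81.8% of protein-coding genes off chromosome 18, so these shares are lower limits for each set.

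The lower share at starts was present at every fold for which there were enough members to compare. At a fold of 5 to 6 it was 14.0% of members and 26.2% of shared peaks. At 8 to 10 it was 11.6% and 28.3%, and at 10 to 12 it was 8.08% and 25.7%. No member off chromosome 18 with a fold over 20, among 19 such members in all, lay within 1 kb of a start, against 22.4% of the shared peaks with a fold of 20 to 30. These are values of 1 library per condition, so the difference was not tested.

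**Figure D3:**
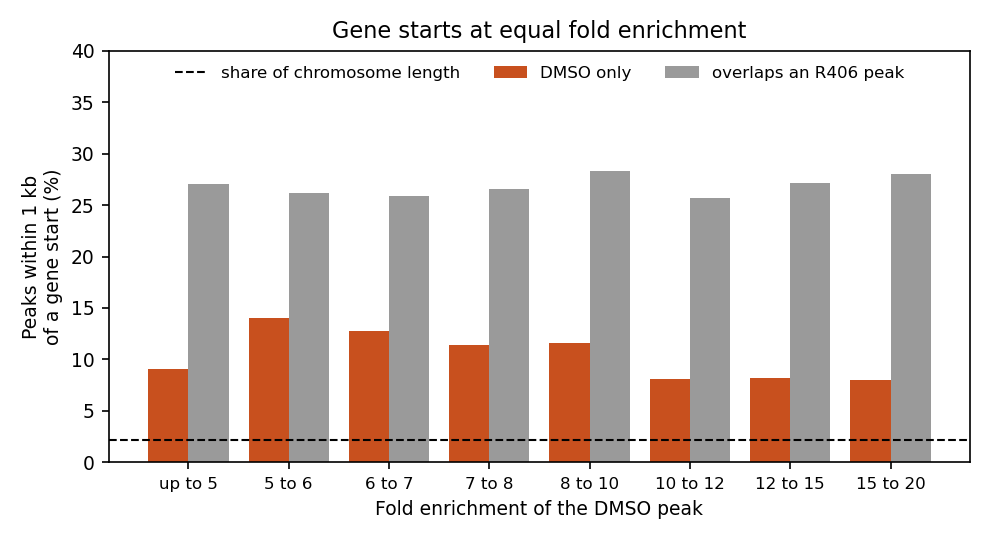
Share of DMSO peaks within 1 kb of a RefSeq gene start, in percent, by fold enrichment of the peak, for DMSO-only peaks (orange) and peaks that overlap an R406 peak (grey). Orange bars run from 8.0% to 14.0% and grey bars from 25.7% to 28.3%, and the dashed line is the 2.18% of chromosome length in such windows.

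Inside and outside genes the contrast was smaller. A RefSeq gene span overlapped 62.8% of members, 68.5% of shared peaks and 65.0% of R406-only peaks, and gene spans cover 47.2% of the length. An end of a gene, of either kind, lay within 1 kb of 17.6% of members, 32.2% of shared peaks and 21.8% of R406-only peaks. For 1131 members (19.8%) no gene lay within 10 kb.

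The highest members were mostly far from the start of a protein-coding gene. The peak with the highest fold, chr6:16828232-16828577, had a fold of 38.6, a summit height of 52, and lay 28.3 kb from any R406 peak. It was 2.35 kb from the end of Tfec, a transcription factor gene of the Mitf family expressed in macrophages, and 69.9 kb from its start. Tfec RNA was 1.44 and 1.83 TPM in DMSO and 7.14 and 6.67 TPM in R406. The R406 values were both higher, with a log2 change of 1.59 on the log2(TPM + 1) scale used throughout (limma adjusted p = 0.0196, Benjamini-Hochberg; 0.0795 without DMSO replicate 1).

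The next, chr6:99755753-99756425 with a fold of 32.1, lay 29.4 kb from Prok2, a prokineticin gene listed at 0 in 3 libraries and at 0.0943 TPM in DMSO replicate 2. A peak with a fold of 29.9, chr17:81474587-81475242, lay inside Slc8a1, the sodium-calcium exchanger, 263 kb from the nearest listed start of that gene. Slc8a1 RNA was 1.97 and 1.95 TPM in DMSO and 0.344 and 0.540 TPM in R406. Both R406 values were lower, with a log2 change of −1.04 (limma adjusted p = 0.0411, Benjamini-Hochberg). That call was lost when any of DMSO replicate 1, DMSO replicate 2 or R406 replicate 1 was left out, with adjusted p of 0.130, 0.0930 and 0.0831.

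Of the other members with the highest fold, 2 had Efnb2 and Postn as their nearest protein-coding genes. The peak chr8:8532916-8533588, with a fold of 25.5, was 83.7 kb from Efnb2, the ephrin-B2 ligand. Efnb2 RNA was 38.4 and 33.0 TPM in DMSO and 15 and 14.4 TPM in R406, a log2 change of −1.22 (limma adjusted p = 0.0295, Benjamini-Hochberg; 0.162 without DMSO replicate 1 and 0.0850 without DMSO replicate 2). The peak chr3:54461271-54462207, with a fold of 24.8, was 70.2 kb from Postn, the periostin gene of fibroblast matrix. Postn RNA was 14.9 and 15.4 TPM in DMSO and 49.6 and 51.7 TPM in R406, a log2 change of 1.68 (limma adjusted p = 0.0165, Benjamini-Hochberg; 0.0653 without DMSO replicate 1). The groups did not overlap for either gene, and the directions were opposite.

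Pla2g4a, the cytosolic phospholipase that frees arachidonic acid, held chr1:149846714-149847185 in its span, with a fold of 24.04. Its RNA was 22.0 and 19.9 TPM in DMSO and 12.7 and 12.2 TPM in R406. The R406 values were lower but the gene was not called (limma adjusted p = 0.0852, Benjamini-Hochberg). The widest member, chr2:126316574-126318448, spanned 1875 bases at a fold of 12.4 and lay 2.52 kb from Atp8b4, a lipid flippase gene listed at 1.04 and 0.861 TPM in DMSO and 0.156 and 0.205 TPM in R406, too low to test.

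RNA was then compared at all genes within 10 kb of a member, as the RNA took no part in choosing the peaks. Of 13929 genes tested, 593 were higher and 564 lower in R406, which is 4.26% and 4.05%, or 8.31% in either direction. The labels do not tie the libraries to separate cultures, and each p-value reflects only how far these libraries differ, a spread that can be technical. In bulk RNA, fewer cells of a type and less RNA per cell cannot be told apart. TPM values hold no record of depth, and read numbers are unknown.

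Genes near a member were lower in R406 more often than the background, and higher slightly less often. Of 2742 tested genes near a member, 199 (7.26%) were lower and 97 (3.54%) higher, with a median log2 change of −0.128. Of the 10728 tested genes with none near, 3.35% were lower and 4.47% higher, with a median of 0.0103. The groups did not overlap, with R406 lower, for 1085 of the near genes, against 30.2% of all genes tested, and with R406 higher for 575, against 25.9%. Leaving out any 1 library, which leaves 1 in its group, gave fewer lower calls near members, fewest without DMSO replicate 1. Higher calls near members became fewer, except without R406 replicate 2, where they became more. In each of these fits the share of lower calls near members was above that of all genes tested. That of higher calls was below it. No test of the near genes as a set was made.

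The share of lower calls was larger for genes with more members. It was 5.90% of 2086 genes with 1 member near, 10.3% of 468 with 2 and 14.9% of 188 with 3 or more, while higher calls made up 3.5%, 4.49% and 1.60%. Genes with more members were also longer, with median spans of 29.99, 81.3 and 220 kb. Genes with 3 or more shared peaks near had 9.99% lower calls, and 7.06% where no member was near. Genes with 3 or more R406-only peaks near had 7.12% lower calls, and 4.70% where no member was near.

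**Figure D4:**
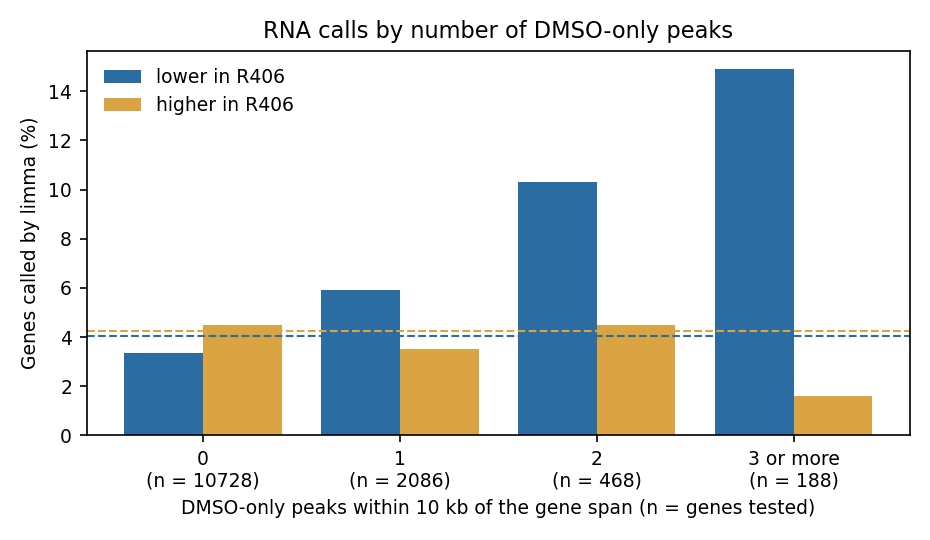
Percent of tested genes called lower (blue) or higher (yellow) in R406 by limma, by number of DMSO-only peaks within 10 kb of the gene span. Blue bars run from 3.35% with none to 14.9% with 3 or more, and the dashed lines are the shares among all genes tested, 4.05% lower and 4.26% higher.

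Split by gene length, the share of lower calls was higher near members in each class. It was 3.94% against 2.85% for spans up to 20 kb, 6.68% against 2.92% for 20 to 50 kb, and 6.22% against 4.81% for 50 to 100 kb. For spans of 100 to 200 kb it was 11.7% against 5.37%, and over 200 kb 13.1% against 8.16%. Higher calls were less common near members in the 2 classes up to 50 kb, at 3.71% against 5.35% and 3.02% against 3.61%. They were more common in the 3 longer classes, at 4.98% against 3.49%, 3.39% against 2.77% and 2.23% against 2.04%. Most of the near genes had other peaks too, since 65.2% had a shared peak and 70.9% an R406-only peak within 10 kb. The part of gene length within these classes was not tested.

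At promoters, calls were rarer in both directions. Of 335 tested genes with a promoter window under a member, 6 (1.79%) were lower and 7 (2.09%) higher, both below the background shares. The groups did not overlap with R406 lower for 113 of them (33.7%) and with R406 higher for 75 (22.4%), and their median log2 change was −0.0872, against −0.0155 for all genes tested. Of 3133 tested genes with a promoter window under a shared peak and none under a member, 3.22% were lower and 1.37% higher. Srgn, the serglycin proteoglycan gene, was the most abundant of the 13, at 75.1 and 121 TPM in DMSO and 509 and 478 TPM in R406. Its R406 values were both higher, with a log2 change of 2.36 (limma adjusted p = 0.0192, Benjamini-Hochberg). The other higher genes were Rhpn2, Prr15, Rpa3, Mgarp, Immp1l and Vrk1, and the lower ones were Ugt1a6a, Pcdh19, Gldn, Xxylt1, Adam22 and Tmem245. Among them Rpa3, a replication protein gene, went from 52.3 and 63.8 to 154 and 148 TPM, and Pcdh19, a protocadherin gene, from 3.55 and 3.29 to 0.699 and 0.859 TPM.

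The genes near members with the largest falls were led by chemokines. Pf4 and Ppbp, neighbouring platelet-factor chemokine genes, share 1 member, chr5:90763865-90764416, with a fold of 6.56, 8.02 and 4.10 kb from their starts. Pf4 RNA was 43.6 and 49.7 TPM in DMSO and 0.552 and 1.10 TPM in R406. Ppbp RNA was 32.9 and 28.2 TPM in DMSO and 0.380 and 0.212 TPM in R406. Both genes were lower in both R406 libraries, with log2 changes of −4.72 (SE 0.233) and −4.60 (SE 0.200) (limma adjusted p = 0.00785 for each, Benjamini-Hochberg).

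Ccl8, a chemokine that draws monocytes, held chr11:82116262-82116526 in its span, 1.08 kb from its start, with a fold of 5.83. Its RNA was 1240 and 1236 TPM in DMSO and 46.6 and 62.0 TPM in R406, a log2 change of −4.50 (SE 0.215, limma adjusted p = 0.00785, Benjamini-Hochberg). Neither of these 2 member peaks had a shared or R406-only peak within 10 kb of the same gene. Macrophage markers moved with these genes. Of 11 in the list, 9 were tested and 8 called lower, against 4.05% of all genes tested. Their summed level was 284 and 240 TPM in DMSO and 21.6 and 22.8 TPM in R406, and none was at 0 in all libraries. The part of macrophage RNA in these falls was not tested.

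Il1rl1, the receptor of interleukin 33, had the strongest member of this group in its span, chr1:40435852-40436788, with a fold of 13.1, 2.84 kb from a start. Its RNA was 17.4 and 12.8 TPM in DMSO and 0.632 and 1.04 TPM in R406, a log2 change of −3.13 (SE 0.244, limma adjusted p = 0.0125, Benjamini-Hochberg). Ankrd1, a muscle ankyrin repeat gene induced by YAP and mechanical load, held chr19:36116249-36116516, with a fold of 6.56. Its RNA was 44.0 and 36.4 TPM in DMSO and 3.27 and 4.09 TPM in R406, a log2 change of −3.14. The R406 values of both genes lay below both DMSO values.

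Nrcam, a neuronal adhesion gene, and Syt7, a calcium sensor of vesicle release, each held a member, with log2 changes of −3.32 and −3.40. Aif1l, an actin-binding gene, was 0.708 kb from its member and fell from 102 and 77.7 to 10.1 and 8.54 TPM. The other genes in this group, Ugt1a9, C2cd4a, U90926 and Gsta1, had DMSO levels of 8.75 to 39.3 TPM. Ugt1a9 shares exons with other Ugt1a genes and Gsta1 has close paralogs, so their values are uncertain. The 12 genes named for the largest falls had adjusted p of 0.00785 to 0.0391, and all 12 were still called when any 1 library was left out. C2cd4a lost its call with a minimum mean of 5 TPM (adjusted p = 0.0513), and none of the 12 was called with no filter on low values.

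In the other direction, the genes near members with the largest rises included a collagen, a laminin and a claudin. Col15a1, a basement membrane collagen, had 2 members in its span, near its end and 95.4 and 103 kb from its start, with folds of 5.10 and 6.56. Its RNA was 1.54 and 1.97 TPM in DMSO and 53.6 and 47.0 TPM in R406, a log2 change of 4.22 (SE 0.200, limma adjusted p = 0.00785, Benjamini-Hochberg). Lama1, a laminin chain of basement membrane, went from 6.10 and 7.94 to 62.5 and 32.3 TPM and its call was lost without DMSO replicate 1 (adjusted p = 0.0562). The 1 member in Lama1 was the peak named above for its −log10 p of 361, at a fold of 9.56, and 7 R406-only peaks lay within 10 kb of the gene. Col26a1, another collagen, went from 4.67 and 5.25 to 42.6 and 24.2 TPM. R406 libraries were above DMSO libraries for all 3.

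Cldn6, a tight junction gene of embryonic epithelium, went from 4.93 and 6.42 to 56.1 and 33.5 TPM, with a member 2.50 kb away that lay 84 bases from an R406 peak. Gkn2, a gastric mucosa gene, went from 2.25 and 1.62 to 55.0 and 46.9 TPM. Avp, the vasopressin gene, went from 2.03 and 1.25 to 53.7 and 29.6 TPM. Epithelial markers moved with these genes: 6 of 7 tested were called higher, against 4.26% of all genes tested. Their summed level was 152 and 147 TPM in DMSO and 799 and 456 TPM in R406. Markers of extraembryonic endoderm moved as well, with 4 of 6 called higher, against the same 4.26%. Their sums were 34.1 and 45.2 TPM in DMSO and 243 and 136 TPM in R406. The part of such cells in these rises was not tested.

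Gldc, the glycine decarboxylase of mitochondria, was the only gene found near a member on a list of 12 serine, glycine and hydrogen sulphide enzymes named for the study's title. That is 8.33% of the list, against 15.9% of all protein-coding genes. Only 11 of the list's 13 RNA entries were placed on a RefSeq span, so the list was not covered in full. Gldc had 3 members, 2 of them in its span, with folds of 5.10 to 8.74 and 0.202 to 5.51 kb from R406 peaks. Its RNA was 5.00 and 5.87 TPM in DMSO and 77.3 and 52.0 TPM in R406, a log2 change of 3.33 (SE 0.257, limma adjusted p = 0.0125, Benjamini-Hochberg). Ifi30, a lysosomal thiol reductase gene, went from 30.1 and 32.0 to 290 and 177 TPM, with a member 9.01 kb from its start.

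Slc26a10, Ly6g6c, Fxyd7 and Mir1199 complete the 12 genes named for the largest rises. The call of Slc26a10 was lost without DMSO replicate 1 (limma adjusted p = 0.0505, Benjamini-Hochberg). Mir1199 is a hairpin gene of 0.119 kb, and TPM of so short a model is uncertain. Members were inside the gene span for 7 of the 12 rising genes and for 7 of the 12 falling genes. Within 10 kb of the gene, no shared and no R406-only peak was found for 3 of the rising and 4 of the falling genes.

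**Figure D5:**
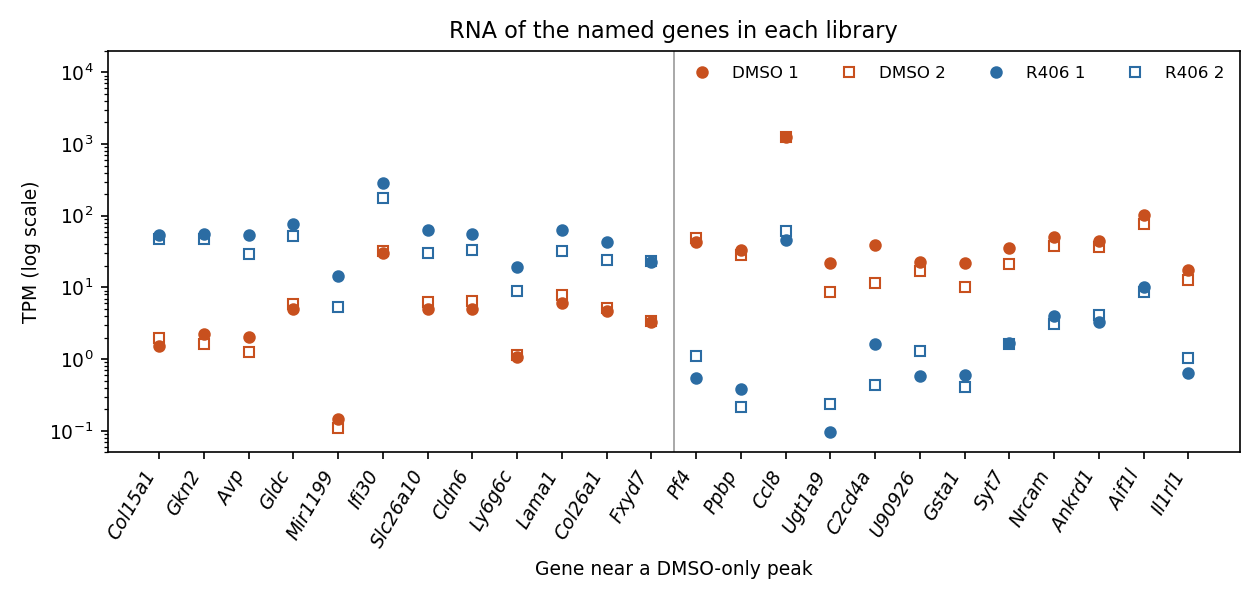
RNA level in TPM (log scale) of the 24 genes named near DMSO-only peaks, in each of 2 DMSO (orange) and 2 R406 (blue) libraries, filled circles for replicate 1 and open squares for replicate 2. The 12 genes on the left are higher in both R406 libraries and the 12 on the right are lower in both.

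The signalling chain from Syk to NFAT had members at several steps. Of 31 genes on this list, 13 (41.9%) had a member within 10 kb, against 15.9% of all protein-coding genes. Several of the 13 were long, such as Itpr1 at 338 kb, Itpr2 at 394 kb and Ppp3ca at 268 kb. The median of all protein-coding genes was 17.3 kb, and the part of length was not tested. Of the 13, 12 were tested, of which 0 were higher and 1 was lower, against 7.26% lower among tested genes near a member. An unadjusted limma p was under 0.05 for 4 of them, as for 26.8% of all genes tested and 32.0% of tested genes near a member. The 1 called was Itpr1, the calcium release channel of the endoplasmic reticulum, with members of fold 5.83 and 7.29 in its span. These members lay only 52 and 1688 bases from an R406 peak, among 6 shared and 5 R406-only peaks within 10 kb of the gene. Itpr1 RNA was 14.6 and 17.4 TPM in DMSO and 5.25 and 4.81 TPM in R406, a log2 change of −1.50 (SE 0.195, limma adjusted p = 0.0221, Benjamini-Hochberg). The groups did not overlap, and the call was lost without DMSO replicate 1 or without DMSO replicate 2, with adjusted p of up to 0.0712.

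Upstream of calcineurin, Plcg1, which makes the signal that opens Itpr channels, held 1 member and had 27.3 and 23.5 TPM in DMSO and 17.95 and 15.1 TPM in R406. Stim1, the store calcium sensor, held a member with a fold of 10.2 that lay 86.7 kb from any R406 peak, and its RNA was 15.03 and 15.4 TPM in DMSO and 14.2 and 15.4 TPM in R406. Ppp3ca, a catalytic subunit of calcineurin, held a member with a fold of 5.10, and its RNA was 41.8 and 38.2 TPM in DMSO and 30.1 and 28.0 TPM in R406. None of these 3 was called, with limma adjusted p of 0.143, 0.925 and 0.196 (Benjamini-Hochberg).

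Nfatc1 itself had 4 members, 3 in its span and 1 just outside it, with folds of 4.02 to 7.29, among 9 shared and 6 R406-only peaks. All 4 lay 0.224 to 2.14 kb from an R406 peak. Nfatc1 RNA was 2.41 and 2.98 TPM in DMSO and 7.36 and 5.45 TPM in R406, and was not called (limma adjusted p = 0.0659, Benjamini-Hochberg). The R406 values were both higher, and the gene was called with quantile normalization (adjusted p = 0.0374), with the replicate block (0.0263) and without R406 replicate 2 (0.0430). The CUT&Tag cells also carried Nfatc1 on the vector, and the sources used here do not say how vector reads were placed.

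Of 23 known NFAT targets, 4 (17.4%) were near a member, close to the 15.9% of all protein-coding genes. These were Rcan1, Egr2, Atp6v0d2 and Nfatc1, of which 2 were tested, with 0 called by limma and 1, Nfatc1, at an unadjusted p under 0.05, against 26.8% of all genes tested. Rcan1, the feedback inhibitor of calcineurin, had a member of fold 8.74 lying 1.15 kb from its end and 0.213 kb from an R406 peak, beside 12 shared peaks. Its RNA was 160 and 128 TPM in DMSO and 159 and 128 TPM in R406, with ranges that overlapped almost fully. Egr2, a zinc finger gene of immediate response, had a member 0.505 kb from a start and RNA of 0.658 and 0.448 TPM in DMSO and 0.196 and 0.135 TPM in R406. Atp6v0d2, a proton pump subunit gene of osteoclasts, held 2 members with folds of 10.9 and 13.1, at least 18.4 kb from any R406 peak, and its RNA was at most 0.359 TPM.

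Of 16 genes of AP-1, IRF, MEF2 and GATA partners, 4 were near a member, against 15.9% of all protein-coding genes. These were Batf3, Fosl1, Junb and Jund, all tested. Fosl1 alone was called, and it was lower, against 7.26% lower among tested genes near a member. Junb RNA was 66.5 and 46.1 TPM in DMSO and 61.2 and 0 TPM in R406. The log2 change of Junb was −2.84, and it was −5.82 without R406 replicate 1 and 0.142 without R406 replicate 2. Fosl1, an AP-1 subunit of growing fibroblasts, held 2 members with folds of 5.83 and 5.10. Its RNA was 70.3 and 33.8 TPM in DMSO and 10.7 and 7.75 TPM in R406, a log2 change of −2.30 (SE 0.396, limma adjusted p = 0.0373, Benjamini-Hochberg). Fosl1 also counts among 7 of 17 fibroblast identity genes near a member (41.2%), against 20.4% of tested genes placed on RefSeq. Several of the 7 were long, such as Runx2 at 319 kb, Tead1 at 227 kb and Runx1 at 225 kb. The median of tested genes was 19.7 kb, and the part of length was not tested. Of these 7, 3 were lower and 0 higher, against 7.26% and 3.54% of tested genes near a member. In the whole list of 17, all tested, 3 were lower and 1 higher. Runx2, a regulator of bone-forming mesenchyme, held members with folds of 5.10 and 13.1 and went from 6.14 and 4.87 to 1.28 and 0.962 TPM. Tgfbr2, a receptor of TGF-beta, held a member with a fold of 10.2 and went from 202 and 189 to 58.3 and 51.1 TPM. The calls of Fosl1, Runx2 and Tgfbr2 were each lost without DMSO replicate 1, with adjusted p of 0.0653, 0.0725 and 0.0599. Of 11 fibroblast markers, all tested, 2 were called higher and 1 lower, against 4.26% and 4.05% of all genes tested. Their summed level was 3229 and 2852 TPM in DMSO and 4605 and 3452 TPM in R406. Runx1, with 4 members in its span, had 9.91 and 8.44 TPM in DMSO and 10.1 and 8.28 TPM in R406.

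The spans with the most members were those of long genes, and none of those tested was called. Dnm3, a dynamin gene, held 10 in its 496 kb, with folds of 4.37 to 13.1, among 16 shared and 17 R406-only peaks. Its RNA was 5.05 and 4.22 TPM in DMSO and 3.98 and 3.09 TPM in R406. Lrmda and Rbms3 held 8 each, and Adk, Cmss1 and Filip1l 7 each. Lrmda had a mean under 1 TPM and was not tested. The span of Filip1l lies inside that of Cmss1, so their 7 members are the same 7 peaks. Reads of these 2 genes cannot be told apart without strand.

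The most abundant RNA near a member was that of Crabp1, a retinoic acid binding protein gene, at 20450 and 13860 TPM in DMSO and 11760 and 8157 TPM in R406. Lgals1, the galectin 1 gene, followed at 11710 and 8993 TPM in DMSO and 3975 and 3112 TPM in R406, under a member with a fold of 4.37 that lay 141 bases from an R406 peak. Lgals1 was called lower, with a log2 change of −1.55 (limma adjusted p = 0.0336, Benjamini-Hochberg), and the call was lost without either DMSO replicate or without R406 replicate 2. Eef1a1, Rps2 and Fau, genes of protein synthesis, and Ctsb, a lysosomal protease gene, came next and were not called.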

How the data were processed

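Nfatc1 CUT&Tag peak lists (1 DMSO and 1 R406 library) and RNA-seq (2 libraries per condition) were grouped by sample title. For the peaks, the authors deposited per peak a fold enrichment ratio, −log10 of p and of q, a score equal to 10 times −log10 p cut to a whole number, and another column for the summit offset. Tools named per the submitters' processing notes were Bowtie2 2.2.5, MACS2 2.1.2, ChIPseeker, HOMER and deepTools on mm10, and for RNA HISAT2 2.1.0 and StringTie 2.0. The sources used here do not give the control, calling limit, duplicate handling or annotation. The authors deposited TPM per gene, from an unstranded kit per the labels' protocols.

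Peaks were compared by overlap of 1 base, on 20 chromosomes, leaving out 89 DMSO and 86 R406 rows elsewhere. Gene spans and starts came from RefSeq GRCm38.p6, and 96.7% of tested genes were placed by symbol. The 13929 of 53715 genes whose mean reached 1 TPM were fitted on log2(TPM + 1) with R 4.3.3 and limma 3.58.1, two-sided, with a trend and Benjamini-Hochberg adjustment at 0.05. The overlap code and the fit were tested on simulated data. Named genes were up to 12 calls per direction with the largest change, separate groups, no predicted symbol and 5 TPM or more in the higher group, plus list members, the 6 most abundant and the 6 with most peaks. Fold changes understate low genes. The members and lists were chosen with earlier results of these data known. The blank was left out.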

Additional observations from a re-analysis of the deposited data

How the results depend on the processing

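Peak counts under other rules ran from 4320 to 7915 and stayed within 1.5 times 5714, including the rule with as many R406 as DMSO peaks, chosen after seeing the data. The median fold was 7.29 for DMSO-only peaks with −log10 p of at least 7. Protein-coding spans alone, also chosen after seeing the data, overlapped 53.4% of members. An end lay within 5 kb of 37.4% of members and 49.3% of shared peaks, and within 1 kb of 16.0% when an R406 peak within 1 kb counted as shared. With no filter on low values limma called 0 genes in either direction, near members or in all. An unadjusted limma p was under 0.05 for 5394 of 27879 genes, and for 1047 of the 3853 near members. With a minimum of 5 TPM, 311 genes (3.22%) were higher and 332 lower, and 48 near members (2.42%) were higher. Quantile normalization gave 850 lower. Genes overlapped by a member gave 58 higher, and a window of 50 kb gave 190 higher. Leaving out 1 library at a time gave 159 to 914 higher and 158 to 574 lower genes, and 21 to 141 higher and 44 to 179 lower near members. Tead1, at a log2 change of 0.11 (limma adjusted p = 0.956, Benjamini-Hochberg), was called in opposite directions by leave-outs, at −1.27 without R406 replicate 2 (0.0311) and 1.49 without R406 replicate 1 (0.0246). The share of lower calls near members was above that of all genes in every setting except no filter.

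With the replicate block, 2128 genes (15.3%) were higher and 2535 (18.2%) lower. Near members, 318 (11.6%) were higher and 724 (26.4%) lower. Deviations from the group mean in DMSO replicate 1 and R406 replicate 1 correlated at 0.556 across the tested genes. With 2 libraries per condition, the replicates numbered 2 give the same value by construction. The labels do not tie a number to a culture, so the pairing was not used. The cause of these shifts was not tested. TPM keeps no depth and the peaks have 1 library per condition, which limits every comparison of peaks.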
